A study of Drosophila melanogaster with 2 samples.

Results

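The 290 nuclear transfer RNA (tRNA) genes of Drosophila melanogaster were described here by the CG2129-eGFP chromatin immunoprecipitation peaks at their starts. They were taken as every gene of class tRNA on the major chromosome arms in the Ensembl annotation, 290 of 18164 genes once transposable elements were left out. Another 22 tRNA genes on the mitochondrial genome were not counted. The 290 genes covered 22 isotypes, counting initiator methionine (iMet) and selenocysteine (SeC) apart, and 45 anticodons. Chromosome 4 held 0 of them.

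The study mapped where a fusion of the CG2129 protein to enhanced green fluorescent protein (eGFP) sat on DNA in whole embryos aged 0 to 4 h. The flies carried the fusion as a transgene, and DNA was recovered with an antibody to GFP after sonication to 200 to 800 bp. There was 1 group with 2 biological replicates, sex was not collected, and the embryos of 1 library were a whole-organism mixture of cell types. The control experiment named by the submitters was not analysed here, so recovery of the same DNA without the fusion was not measured.

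A tRNA gene is transcribed by RNA polymerase III from a promoter that lies inside the gene. TFIIIC binds the internal A box and B box and places TFIIIB just before the start, and TFIIIB recruits the polymerase, which stops in a run of T. Many tRNA genes of flies occur as identical copies, often in clusters. Such a gene needs no promoter of RNA polymerase II.

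Of these tRNA genes, 271 of 290 held the B box core GTTCNANNC on their sense strand, 271 held an A box in their first 40 bp and 277 had TTTT within 30 bp after their end. The sequence of the annotated class thus carried the elements of a polymerase III gene. Gene length ran from 71 to 186 bp with a median of 73 bp, and 16 genes had an intron. Only 95 gene sequences were distinct. As many as 238 genes had at least 1 identical copy and the largest family had 13. The sources used here do not state where reads that fit several copies were put.

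Genes that stand for the main results are shown from 5' to 3' on their own strand, as read from the NCBI RefSeq Release 6 (dm6) genome, with the B box core in capitals. tRNA:Gly-TCC-1-2 (chr3R:7130947-7131018, minus strand) had the strongest peak of the class. tRNA:Arg-TCG-2-1 (chrX:14014814-14014886, plus strand) had the only such peak on the X chromosome. tRNA:Cys-GCA-1-3 (chr3L:3096369-3096440, plus strand) stood in a cluster of 6 genes, and tRNA:Glu-CTC-3-1 (chr3L:1379934-1380005, plus strand) was 1 of 9 identical genes of which 8 had a thresholded summit.
Gly-TCC-1-2: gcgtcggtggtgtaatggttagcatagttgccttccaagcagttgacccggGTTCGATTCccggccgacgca
Arg-TCG-2-1: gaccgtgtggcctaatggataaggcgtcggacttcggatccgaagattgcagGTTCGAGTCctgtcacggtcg
Cys-GCA-1-3: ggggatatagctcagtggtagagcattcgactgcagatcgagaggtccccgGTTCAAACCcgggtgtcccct
Glu-CTC-3-1: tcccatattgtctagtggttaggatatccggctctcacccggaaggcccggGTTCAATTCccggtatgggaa

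The DNA under 4 of the peaks is shown as 201 bases centred on the summit, on the plus strand of dm6. In the first 3 the capitals mark bases of an annotated tRNA gene, and these windows show how close the summits lay to the genes: chrX:14014807-14015007, chr3L:3096349-3096549 and chr3L:1397657-1397857, the last with its summit inside tRNA:Glu-CTC-3-4. In the fourth, chr3R:7131011-7131211 beside tRNA:Gly-TCC-1-2, the capitals mark TATCGATA, the core of the DNA replication-related element (DRE) of many housekeeping promoters, which began 11 bp before the summit.
Arg-TCG-2-1 summit: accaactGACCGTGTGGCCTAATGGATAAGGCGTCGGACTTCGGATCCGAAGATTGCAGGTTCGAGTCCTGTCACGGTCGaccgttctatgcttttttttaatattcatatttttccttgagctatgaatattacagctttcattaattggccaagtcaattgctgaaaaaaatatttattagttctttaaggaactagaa
Cys-GCA-1-3 summit: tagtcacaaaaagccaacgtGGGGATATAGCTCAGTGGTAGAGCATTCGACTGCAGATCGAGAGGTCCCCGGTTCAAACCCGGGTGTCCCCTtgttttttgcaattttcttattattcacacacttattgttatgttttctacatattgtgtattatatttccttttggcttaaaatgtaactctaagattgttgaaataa
Glu-CTC-3-4 summit: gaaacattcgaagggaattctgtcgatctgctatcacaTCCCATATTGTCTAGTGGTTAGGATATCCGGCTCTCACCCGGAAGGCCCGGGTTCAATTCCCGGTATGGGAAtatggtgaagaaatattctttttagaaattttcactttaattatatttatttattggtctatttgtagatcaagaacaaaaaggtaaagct
Gly-TCC-1-2 summit: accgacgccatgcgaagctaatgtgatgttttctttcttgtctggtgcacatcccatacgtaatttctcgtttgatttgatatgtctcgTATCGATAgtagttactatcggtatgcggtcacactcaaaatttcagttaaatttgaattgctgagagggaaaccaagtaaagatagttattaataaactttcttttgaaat

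A tRNA gene was counted when the summit of a peak lay within 500 bp of its start. In the shares of all genes and of other gene classes, a gene was counted at any of its annotated transcript starts. Genes with several such starts therefore had more windows than a tRNA gene. Each list gives a peak signal of unstated scale, which was compared within a list and not between lists. A thresholded list holds peaks that passed the submitters' cut on the irreproducible discovery rate (IDR, the expected share of peaks that do not recur between the peak sets compared). For a list of 1 replicate those sets cannot be the 2 biological replicates. A pass in the pooled thresholded list is therefore not read as a pass in both replicates. A ranked list holds peaks with no such cut. The pooled thresholded list held 2067 peaks, that of replicate 1 held 1681 and that of replicate 2 held 1347. The ranked lists held 47947, 40775 and 47717 peaks. Read depth could not be read from these files.

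Of the 290 tRNA genes, 58 (20%, 95% exact binomial interval 15.6 to 25.1%) had a summit in the pooled thresholded list, beside 14.2% of all genes and 17.3% of protein-coding genes. The 58 genes rested on 31 strongest peaks, because neighbours shared them. In replicate 1 the count was 47 genes (16.2%, 12.2 to 21.0%), beside 12.2% of all genes. In replicate 2 it was 21 genes (7.24%, 4.54 to 10.9%), beside 9.84% of all genes. In the pooled list the interval lay above the share of all genes but held that of protein-coding genes. In each replicate the interval held the share of all genes. The tRNA share was the higher in replicate 1 and the lower in replicate 2, so no direction is read from the single replicates. Only 12 genes (4.14%, 2.16 to 7.12%) passed in both replicates, though not always at the same site. All intervals cover counting error only, and genes that share a peak are not independent.

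Peaks of any strength were common at these genes. The pooled ranked list placed a summit at 242 of the 290 tRNA genes (83.4%, 78.7 to 87.5%), beside 55.9% of all genes. Replicate 1 did so at 236 genes (81.4%), beside 53.2%, and replicate 2 at 218 genes (75.2%), beside 53.6%. In all 3 ranked lists the tRNA share was the higher, and 24 genes had no summit in any of them. Of tRNA genes with a ranked summit, 58 of 242 (24.0%, 18.7 to 29.9%) also had a thresholded one, against 25.4% of all genes (2575 of 10147), 28.5% of protein-coding genes (2418 of 8491) and 6.67% of other non-coding genes (90 of 1349).

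The tRNA genes were set against other non-coding genes by whether a transcription start site (TSS) of a protein-coding gene lay within 500 bp. This split used the start of the gene, while summits were counted at any of its transcript starts. With none that near, 52 of 258 tRNA genes (20.2%, 15.4 to 25.6%) had a thresholded summit, against 22 of 3082 other non-coding genes, a share of 0.714% (0.448 to 1.08%). With a protein-coding TSS near, the counts were 6 of 32 tRNA genes (18.8%, 7.21 to 36.4%) and 68 of 579 other non-coding genes, a share of 11.7% (9.24 to 14.7%). The 2 intervals away from protein-coding TSSs did not overlap, and those beside them did. Among tRNA genes the share near a protein-coding TSS minus the share away from one was -1.41 percentage points, with a 95% Newcombe interval from -12.6 to 15.7.

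Both replicates gave the same order away from protein-coding TSSs. In replicate 1, 41 of 258 such tRNA genes (15.9%, 11.7 to 20.9%) passed, against 13 of 3082 other non-coding genes (0.422%, 0.225 to 0.720%). In replicate 2 the counts were 18 of 258 (6.98%, 4.19 to 10.8%) and 17 of 3082 (0.552%, 0.322 to 0.882%). Without a near protein-coding TSS, 20 of 2714 ncRNA genes (0.737%) and 1 of 240 small nucleolar RNA genes (0.417%, 0.0105 to 2.30%) had a pooled thresholded summit. It was 1 of 29 small nuclear RNA genes (3.45%, 0.0873 to 17.8%) and 0 of 99 rRNA genes (0 to 3.66%).

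**Figure D1:**
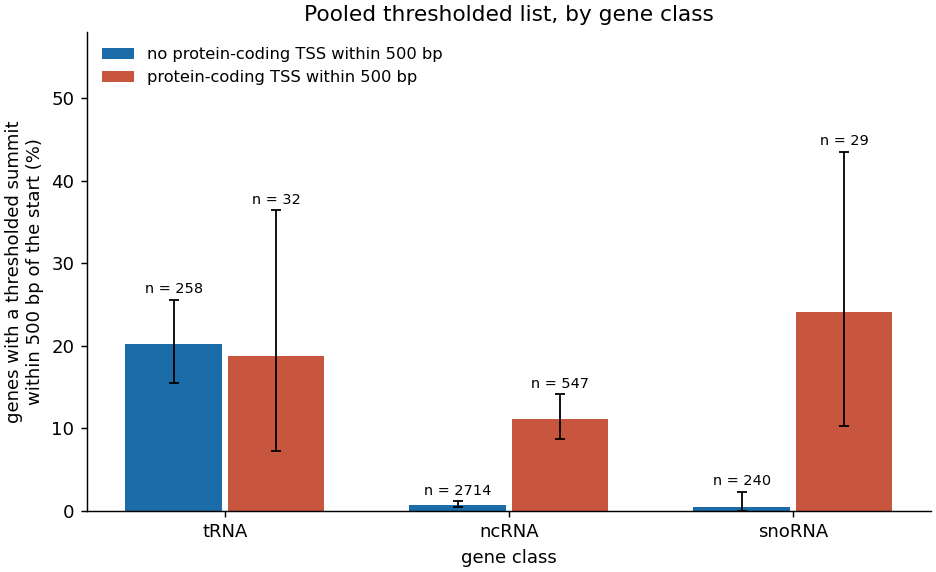
Share of genes with a pooled thresholded summit within 500 bp of any annotated transcript start (percent, y axis) for tRNA, ncRNA and small nucleolar RNA (snoRNA) genes (x axis). Genes are split by whether a protein-coding TSS lay within 500 bp of the gene start. Error bars are 95% exact binomial intervals and n is the number of genes; tRNA genes stood at 20.2% without and 18.8% with such a TSS, and ncRNA genes at 0.737% and 11.2%.

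Most of the tRNA genes with a thresholded summit were far from any coding promoter. Of the 58, 41 lay more than 1000 bp and 21 more than 5000 bp from a protein-coding TSS. The median distance was 2943.5 bp for these genes and 2842 bp for the other tRNA genes. By the position of the summit itself, 7 of the 58 genes had a peak with a protein-coding TSS within 500 bp.

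Counted as peaks, 32 of the 2066 pooled thresholded peaks on the arms (1.55%) had a tRNA start within 500 bp of the summit, and 27 of those 32 had no protein-coding TSS that near. In the whole list 163 peaks had no protein-coding TSS within 500 bp, and 27 of these 163 (16.6%, 11.2 to 23.2%) were the tRNA ones. In the pooled ranked list, tRNA peaks made up 205 of 36831 peaks without such a TSS (0.557%, 0.483 to 0.638%). Among thresholded peaks with a protein-coding TSS, 5 of 1903 (0.263%) had a tRNA start. The tRNA genes therefore took a larger share of the thresholded peaks away from coding promoters than of the ranked ones.

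The signal of these 32 peaks was low for the list. It ran from 13.8 to 136 with a median of 52.8, against 78.1 for the other 2034 thresholded peaks, and 4 of the 32 reached the median of the list. Within peaks that lacked a protein-coding TSS, the median was 47.9 for the 27 at tRNA genes and 57.6 for the 136 others. In the pooled ranked list the order differed. There the median was 20.2 for 234 peaks near a tRNA start, 12.6 for all other peaks and 16.3 for peaks at a protein-coding TSS with no tRNA start.

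Fewer of the tRNA peaks passed in each replicate on its own than of the other peaks. A thresholded summit of replicate 1 lay within 200 bp of 18 of the 32 (56.3%, 37.7 to 73.6%), against 76.2% of the other peaks. For replicate 2 it was 8 of 32 (25%, 11.5 to 43.4%), against 62.4%, and for both it was 5 of 32 (15.6%, 5.28 to 32.8%), against 53.5%. The submitters' conservative pooled list kept 21 of the 32 (65.6%, 46.8 to 81.4%) and 83.4% of the others. Counted by gene, 52 tRNA genes had a summit in that list. Of these, 39 were among the 58, or 67.2% of the 58 and 75% of the 52, and 13 were not.

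The strongest peak of the class lay 93 bp from the start of tRNA:Gly-TCC-1-2, a glycine tRNA gene, with a signal of 136 in the pooled list, 90.3 in replicate 1 and 41.1 in replicate 2. It passed in both replicates. Its summit was 449 bp from the TSS of the protein-coding gene CG31493, and the window around it held the TATCGATA shown above. Next came a peak at tRNA:Trp-CCA-2-2 and tRNA:Gly-GCC-1-9, with 113 pooled, 72.7 in replicate 1 and 48.0 in replicate 2, whose summit was 68 bp from the TSS of CG30122. The peak at tRNA:Trp-CCA-2-6 and tRNA:Gly-GCC-1-13 had 92.5, 39.5 and 46.8 and lay 117 bp from a TSS of tud, which encodes the germ plasm protein Tudor. These 3 peaks were the strongest and each had a coding promoter close by.

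The strongest thresholded peak without a near protein-coding TSS lay inside a group of 3 genes, tRNA:Trp-CCA-2-3, tRNA:Gly-GCC-1-12 and tRNA:Trp-CCA-2-4, at 844 bp from the TSS of CG30389. Its signal was 89.2 pooled, 59.7 in replicate 1 and 33.1 in replicate 2. Glycine genes thus lay beside each of the 4 strongest thresholded tRNA peaks, and tryptophan genes beside 3 of the 4. A ranked peak of 91.6 that is in no thresholded list is described with the clusters. A further peak, 281 bp from the start of tRNA:Tyr-GTA-1-8 and 163 bp from a TSS of CG8036, had 76.0, 42.3 and 33.7 and passed in neither replicate alone.

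Far from coding genes stood the peak between tRNA:Arg-TCG-2-1 and tRNA:Ser-CGA-1-1 on the X chromosome, 14697 bp from the nearest protein-coding TSS. It had a signal of 73.8 pooled, 39.0 in replicate 1 and 32.5 in replicate 2, and passed in both replicates. So did the peak between tRNA:Lys-CTT-1-5 and tRNA:Arg-ACG-1-4, with 72.2, 42.3 and 35.3, at 2039 bp from the TSS of Cyp6w1. Only these 2 of the 27 peaks without a near protein-coding TSS had a thresholded summit of both replicates within 200 bp.

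Other peaks of this kind passed in replicate 1 alone. The peak between tRNA:Phe-GAA-1-6 and tRNA:Phe-GAA-1-7, which carry phenylalanine, had 66.3 pooled, 37.1 in replicate 1 and 26.2 in replicate 2, at 15013 bp from a protein-coding TSS. That between tRNA:Cys-GCA-1-2 and tRNA:Cys-GCA-1-3, with tRNA:Lys-CTT-1-12 also within 500 bp, had 64.0, 33.2 and 18.3. The peak of tRNA:His-GTG-1-1 and tRNA:His-GTG-1-2 had 62.1, 40.3 and 22.7, and tRNA:Asn-GTT-1-7 with tRNA:Asn-GTT-1-8 had 57.9, 29.8 and 23.4. In each of these the replicate 1 value was the larger, which is not read as a difference because the lists differ in scale.

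**Figure D2:**
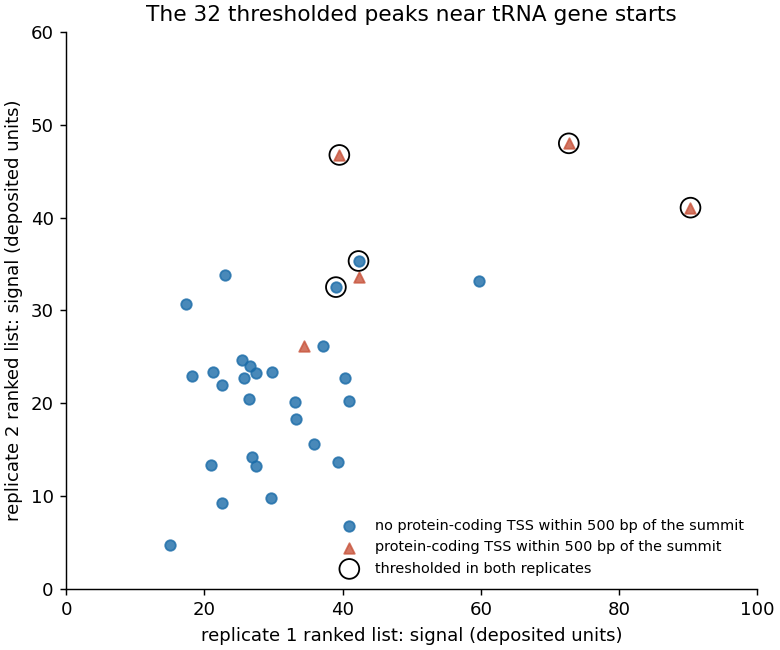
Signal of the strongest ranked summit of replicate 1 (x axis) and of replicate 2 (y axis), in deposited units, at the 32 pooled thresholded peaks near tRNA gene starts. Blue circles have no protein-coding TSS within 500 bp of the summit, red triangles have one, and black rings mark the 5 peaks thresholded in both replicates, all with a signal of at least 32.5 in replicate 2.

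The replicates ordered the tRNA genes only loosely. Over 194 genes with a ranked summit in both replicates, the Spearman correlation of the 2 signals was 0.50, and over the 32 peaks it was 0.46. These are descriptions, since neighbouring genes share peaks. In replicate 1 the median signal was 31.4 for the 58 genes and 14.9 for the 178 others with a ranked summit. In replicate 2 it was 23.3 for 57 of the 58 genes and 12.4 for 161 others, though the pooled list that chose the 58 was made from the same reads.

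Of the 58 genes, 10 passed in both replicates, 25 in replicate 1 only, 5 in replicate 2 only and 18 (31.0%, 19.5 to 44.5%) in neither. A further 16 genes passed in a replicate but not in the pooled list, 10 of them in replicate 1 only and 4 in replicate 2 only. The remaining 2, tRNA:Ala-TGC-1-1 and tRNA:Ala-TGC-2-1, passed in both with a shared peak of 38.4 in replicate 1 and 17.0 in replicate 2, and their pooled ranked signal was 50.8. They were in the conservative pooled list. These 2 genes were singled out after their values were seen.

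The genes were next grouped by isotype, that is, by the amino acid their tRNA carries. Of 22 isotypes, 17 had at least 1 gene with a pooled thresholded summit. The highest shares were in histidine (3 of 5 genes, 60%, 14.7 to 94.7%), phenylalanine (4 of 8, 50%, 15.7 to 84.3%), tryptophan (4 of 8, 50%, 15.7 to 84.3%) and glutamate (9 of 19, 47.4%, 24.4 to 71.1%). These genes rested on 2, 2, 3 and 4 peaks. Asparagine and tyrosine each had 3 of 10 genes, and iMet had 2 of 6.

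Among the other isotypes, serine had 5 of 20 genes, alanine and proline 4 of 17 each, glycine 4 of 20, arginine 5 of 26 and lysine 3 of 19. Valine had 1 of 15 and threonine 1 of 17. In 5 isotypes, 60 genes in all, the count in the pooled thresholded list was 0: leucine (0 of 22, 0 to 15.4%), aspartate (0 of 14, 0 to 23.2%), glutamine (0 of 12, 0 to 26.5%), isoleucine (0 of 11, 0 to 28.5%) and the single SeC gene. With so few genes and peaks, most of these intervals overlapped that of the whole class. Among the 22 isotypes, the interval of glutamate lay above the overall share of 20% and that of leucine below it, with no test made. The 9 glutamate genes shared 4 peaks, so that interval is too narrow. The glutamate count also depended on the list. It was 2 of 19 in the conservative pooled list, 3 in replicate 1 and 0 in replicate 2.

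The isotypes without a thresholded summit were not free of peaks. A pooled ranked summit stood at 19 of 22 leucine genes, 12 of 14 aspartate genes, 11 of 12 glutamine genes and 10 of 11 isoleucine genes. Their highest signals were 35.6, 33.0, 37.5 and 43.2, which lay within the range of the weaker thresholded tRNA peaks. In replicate 1, 3 isoleucine and 2 leucine genes passed, and in replicate 2 it was 1 isoleucine gene, tRNA:Ile-AAT-1-1. The conservative pooled list held a summit at 2 aspartate, 2 glutamine and 1 isoleucine gene and at 0 leucine genes, so the counts of 0 for aspartate, glutamine and isoleucine hold for the pooled thresholded list and not for the conservative one.

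**Figure D3:**
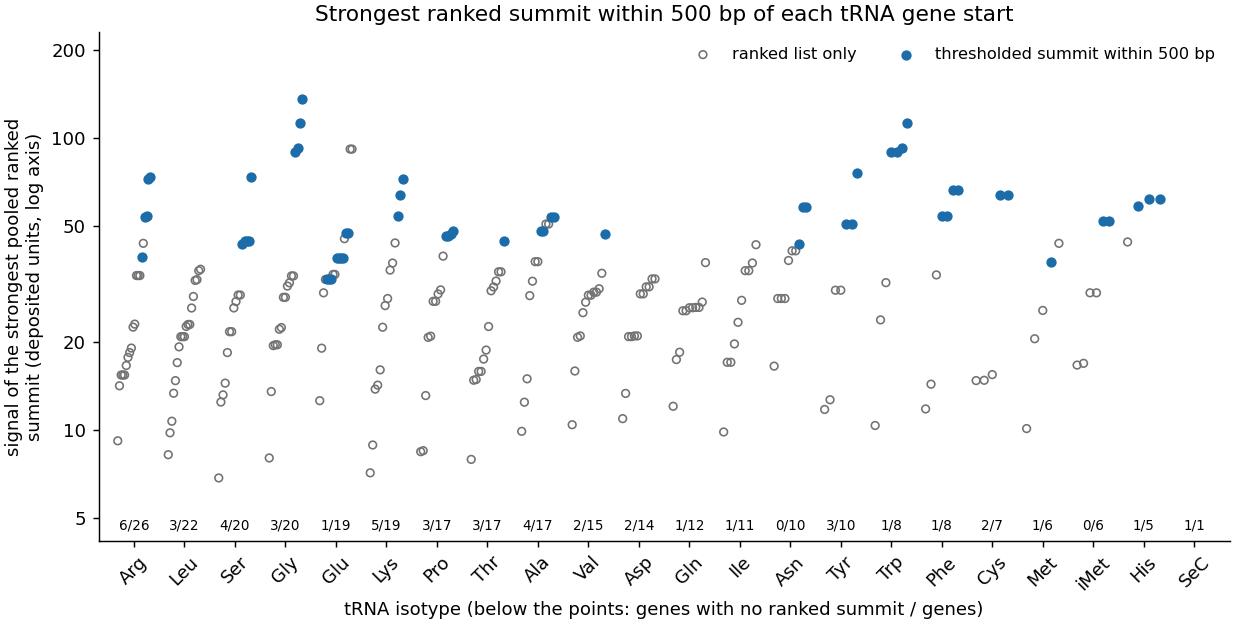
Signal of the strongest pooled ranked summit within 500 bp of each tRNA gene start (y axis, deposited units, log scale) by isotype (x axis, from the most to the fewest genes). Filled points are genes with a pooled thresholded summit and open points have a ranked summit only; the numbers under the points give genes without any ranked summit over all genes. The open points of leucine, aspartate, glutamine and isoleucine reached 35.6, 33.0, 37.5 and 43.2.

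In each isotype with at least 3 genes past the threshold the strongest gene was taken as its example. Those not yet described were tRNA:Glu-CTC-3-8 with tRNA:Glu-CTC-3-9 (47.2 pooled, 26.6 in replicate 1, 24.0 in replicate 2), tRNA:Ala-CGC-1-2 with tRNA:Ala-CGC-1-3 (53.5, 25.7 and 22.7) and tRNA:Pro-TGG-1-2 (47.9, 35.9 and 15.6). The last shared its peak with tRNA:Ala-AGC-2-2 and tRNA:Ala-AGC-2-3. The Glu and Ala peaks passed in neither replicate alone, and the Pro peak passed in replicate 1.

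Identical copies were grouped as families, whose genes differ only in where they lie. Where reads that fit several copies were put is not stated, so a signal may not belong to its own copy alone. Of the 9 identical Glu-CTC-3 genes, the sequence of which is shown above, 8 had a thresholded summit, on 3 peaks of 47.2, 38.9 and 32.8. Only the peak of 47.2 was also in the conservative list, and 0 glutamate genes passed in replicate 2. Of the 8 Phe-GAA-1 genes 4 had one, with family members from 11.8 to 66.3 in the pooled ranked list. The 12 identical Asp-GTC-1 genes had 0 in the pooled thresholded list, with ranked signals from 11.0 to 33.0, although 2 of them, tRNA:Asp-GTC-1-4 and tRNA:Asp-GTC-1-5, had a summit of 31.0 in the conservative list. The 9 Ile-AAT-1 genes had 0 thresholded in the pooled list, with 9.88 to 37.4 in the ranked list. In all, 53 of 238 genes with an identical copy (22.3%, 17.1 to 28.1%) and 5 of 52 genes with a sequence of their own (9.62%, 3.20 to 21.0%) passed, and those intervals overlapped.

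Clusters were chains of tRNA genes whose neighbouring starts lay at most 2 kb apart on either strand. There were 69 clusters with 199 genes (68.6%) and 91 single genes. A pooled thresholded summit stood at 55 of 199 clustered genes (27.6%, 21.5 to 34.4%) and at 3 of 91 single genes (3.30%, 0.685 to 9.33%). The difference was 24.3 percentage points (95% Newcombe interval 16.1 to 31.3). In replicate 1 the shares were 22.6% (45 of 199) and 2.20% (2 of 91), and in replicate 2 they were 10.6% (21 of 199) and 0 of 91 (0 to 3.97%).

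Clustered genes share peaks and cover more DNA, so the same was counted per locus and per length. Of the clusters, 25 of 69 (36.2%, 24.99 to 48.7%) had a thresholded summit, against 3 of 91 single genes. Within 500 bp of clustered starts lay 128.777 kb of DNA with 29 thresholded summits, or 22.5 per 100 kb, and within 500 bp of single starts 91.091 kb with 3 summits, or 3.29 per 100 kb. The ranked summits differed less, with 117 and 91.1 per 100 kb. The single genes that passed were tRNA:Ser-AGA-2-4, tRNA:Met-CAT-1-2 and tRNA:Thr-AGT-1-7, with pooled signals of 43.3, 37.6 and 44.4.

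The count was then taken by neighbours within 500 bp. Of 142 genes with no other tRNA start within 500 bp, 5 (3.52%, 1.15 to 8.03%) had a thresholded summit. With 1 neighbour that close it was 37 of 108 (34.3%, 25.4 to 44.0%), and with 2 or more it was 16 of 40 (40%, 24.9 to 56.7%). The same order of lone genes below paired genes held in replicate 1 (3.52%, 25.9% and 35%) and in replicate 2 (1.41%, 13.9% and 10%). The median signal of the pooled ranked summits was 20.04 for lone genes, 34.9 with 1 neighbour and 33.9 with more, so lone genes had the weaker ranked summits in the median. A ranked summit of any strength stood at 104 of the 142 lone genes (73.2%, 65.2 to 80.3%). In the pooled thresholded list the 5, 37 and 16 genes rested on 5, 22 and 7 peaks, so a gene could count through a neighbour's peak. By length, thresholded summits numbered 3.60 per 100 kb around lone starts and 31.4 around starts with a neighbour. For pooled ranked summits the values were 95.1 and 122.

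**Figure D4:**
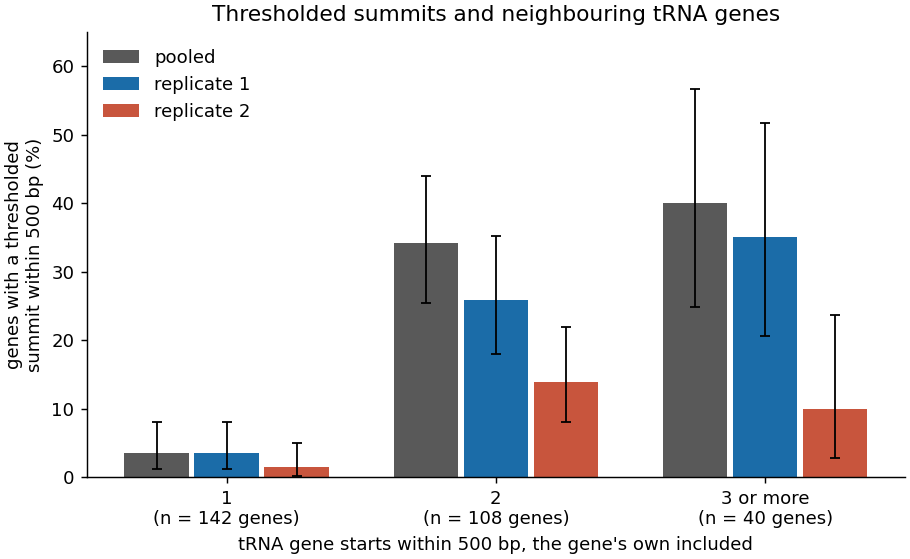
Share of tRNA genes with a thresholded summit within 500 bp (percent, y axis) by the number of tRNA gene starts within 500 bp of the gene's start, its own included (x axis), in the pooled list and in each replicate. Error bars are 95% exact binomial intervals. In the pooled list the shares were 3.52%, 34.3% and 40%, on 5, 22 and 7 peaks, as neighbours share peaks.

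Adjacent pairs were also split by the orientation of the neighbours, with no test made. Of 88 adjacent pairs with starts within 500 bp, 30 (34.1%, 24.3 to 44.97%) had a thresholded summit between the starts or within 200 bp of them. It was 8 of 19 pairs that pointed away from each other (42.1%, 20.3 to 66.5%), 17 of 51 on the same strand (33.3%, 20.8 to 47.9%) and 5 of 18 that faced each other (27.8%, 9.69 to 53.5%). Pairs of 1 isotype (20 of 66) and of 2 isotypes (10 of 22) gave 30.3% (19.6 to 42.9%) and 45.5% (24.4 to 67.8%). All of these intervals overlapped. A gene or a summit could enter more than 1 pair, so pairs were not independent. The overlap does not show that the shares were alike.

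The largest clusters did not hold the most summits. Clusters of 7 genes numbered 3. That of isoleucine and leucine genes on 2R had 0 genes past the pooled threshold, where tRNA:Leu-CAA-2-1, tRNA:Ile-AAT-1-4 and tRNA:Ile-AAT-1-5 shared the strongest ranked peak of 35.2, although 4 of its genes passed in replicate 1. The X cluster of arginine and serine genes had 2, led by tRNA:Arg-TCG-2-1. The 2R cluster of iMet and glutamate genes had 0 in the thresholded lists, yet tRNA:Glu-TTC-1-6 and tRNA:Glu-CTC-2-1 shared a ranked peak of 91.6 pooled, 49.2 in replicate 1 and 40.3 in replicate 2.

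That ranked peak had a -log10 IDR of 3.52, past the threshold, and was still missing from the thresholded lists. It was among 48 such ranked peaks on the arms, of which 2 lay within 500 bp of a tRNA start. The readme texts name 1 further input file for the thresholded lists that they do not name for the ranked lists, without saying what it holds, and its part was not tested. The 0 of the iMet and glutamate cluster is therefore a count of the thresholded lists only. With those ranked peaks counted, 60 tRNA genes in place of 58 would have a summit.

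Clusters of 5 or 6 genes varied as widely. The 3L cluster of cysteine and lysine genes had 3 of 6 on 1 peak of 64.0, shared by tRNA:Cys-GCA-1-2, tRNA:Cys-GCA-1-3 and tRNA:Lys-CTT-1-12. The 3R cluster of asparagine and arginine genes had 1 of 6, tRNA:Asn-GTT-1-10, with 43.5 pooled, 27.4 in replicate 1 and 23.2 in replicate 2. On 2R a cluster of arginine, asparagine and lysine genes had 0 of 5, where tRNA:Asn-GTT-1-4, tRNA:Asn-GTT-1-5, tRNA:Asn-GTT-1-6 and tRNA:Lys-CTT-1-2 shared the strongest ranked peak of 28.3. On 3R the cluster of valine, proline and alanine genes had 5 of 5, on 2 peaks of 47.9 and 47.1, and all 5 passed in replicate 1 and 0 in replicate 2.

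By arm, 13 of 48 genes on 3L (27.1%, 15.3 to 41.8%), 24 of 98 on 2R (24.5%, 16.4 to 34.2%) and 16 of 79 on 3R (20.3%, 12.04 to 30.8%) had a pooled thresholded summit. On X it was 2 of 24 (8.33%, 1.03 to 27.0%) and on 2L 3 of 41 (7.32%, 1.54 to 19.9%). In replicate 2 the 3L count was 0 of 48, and 11 of its 21 genes lay on 2R. All of the pooled intervals overlapped.

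Summits lay close to the gene bodies. Of the 32 peaks, 6 had the summit inside a tRNA gene, 14 between tRNA genes and 12 to one side, and 29 lay within 200 bp of a gene body. The median distance to the body was 30 bp. Over the 242 genes with a pooled ranked summit, the strongest one lay a median of 48 bp downstream of the start, with quartiles of -109 and 117 bp. It was downstream at 145 genes (59.9%, 53.4 to 66.1%) and within 200 bp of the start at 168 (69.4%, 63.2 to 75.2%). Summits farther than 500 bp were not taken, so part of this nearness was set by the window. For the 104 of the 242 genes with no other tRNA start within 500 bp the median was 51 bp downstream, with quartiles of -27 and 99.5 bp.

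**Figure D5:**
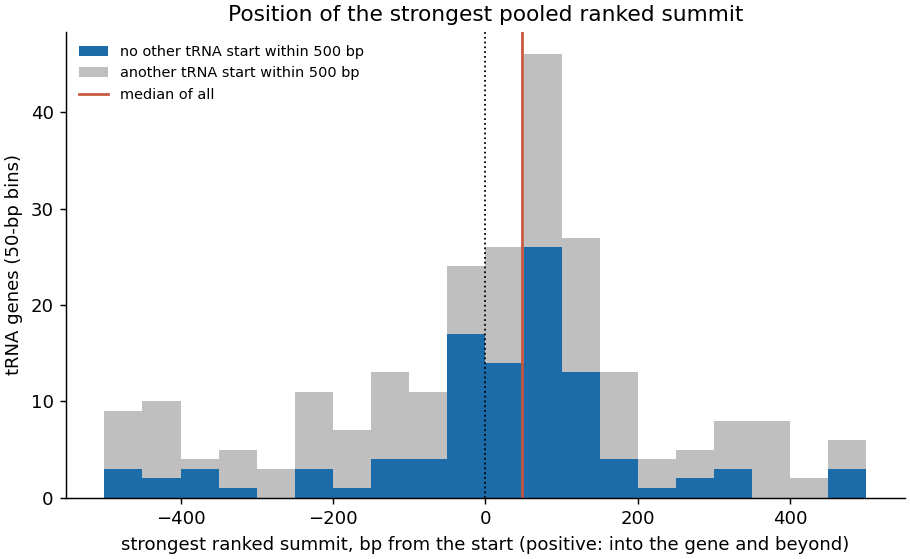
Number of tRNA genes (y axis, 50-bp bins) by the position of the strongest pooled ranked summit relative to the gene start and strand (x axis, bp). Blue bars are genes with no other tRNA start within 500 bp, grey bars stacked on them are the others, the dotted line is the start and the red line is the median of all 242 genes, 48 bp downstream.

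At the edge of the 500-bp window, the farthest genes counted were tRNA:Trp-CCA-2-6, tRNA:Gly-GCC-1-9, tRNA:Cys-GCA-1-2 and tRNA:Glu-CTC-3-3, with summits 456, 458, 458 and 462 bp away. Just outside stood tRNA:Lys-CTT-1-13, tRNA:Glu-CTC-1-1, tRNA:Arg-ACG-1-6 and tRNA:Ser-CGA-1-2, at 514, 528, 532 and 538 bp. Each of these 8 genes had a nearer tRNA neighbour at the same peak.

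Motifs were searched on both strands within 100 bp of each summit. TATCGATA was in 2 of the 32 tRNA windows (6.25%, 0.766 to 20.8%), in 660 of the 2034 other thresholded windows (32.4%) and in 30 of the 136 others without a near protein-coding TSS (22.1%, 15.4 to 29.97%). Around all 23581 gene TSSs the share was 5.45%, and around tRNA starts it was 1.03%. The shorter TATCGAT, which every TATCGATA contains, was in 3 tRNA windows (9.38%) and 55.3% of the others, against 11.0% of all TSSs. CGATA, which lies within both, was in 10 of 32 (31.3%, 16.1 to 50.01%) and 82.1%, against 34.7% of all TSSs. Both windows with TATCGATA belonged to the 2 strongest thresholded tRNA peaks, which lay 449 and 68 bp from a protein-coding TSS.

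The B box core GTTCNANNC showed the opposite order. It was in 23 of the 32 tRNA windows (71.9%, 53.3 to 86.3%), 6.24% of the other thresholded windows and 8.64% of all TSS windows. The A box was in 18 of 32 (56.3%, 37.7 to 73.6%), 24.9% and 27.3%. As these elements lie inside the genes, they mark how near the summits were. The B box was within 100 bp of the start in 54 of 58 genes with a thresholded summit (93.1%) and 213 of 232 without (91.8%), so its presence was alike in both. The A box pattern was in the first 40 bp of 47 of 58 genes with such a summit (81.0%, 68.6 to 90.1%) and 224 of 232 without (96.6%, 93.3 to 98.5%). The 11 with a summit and without this pattern were 8 identical Glu-CTC-3 genes and 3 His-GTG-1 genes. A match is a description of these letters only. Base composition was close, with a median GC content of 38.3% in the tRNA windows and 37.8% in the others.

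Other genes of the polymerase III system were taken from a list by symbol. Of 10 subunit genes, 2 had a pooled thresholded summit within 500 bp, Polr3C (51.1 pooled, 30.1 in replicate 1, 21.2 in replicate 2) and Polr3D (53.1, 27.9 and 18.2), both at promoters shared with another gene. All 10 had a ranked summit. Among all protein-coding genes, the background for these lists of protein-coding genes, 17.3% had a thresholded and 60.9% a ranked summit. The subunit share of 20% (2.52 to 55.6%) was thus near that background. A further 5 genes were listed with TFIIIB, though not all are its subunits. Brf, the TFIIB-related subunit, had a thresholded summit of 94.6, 38.6 and 53.1 at a promoter shared with sds22. Tbp, the TATA-binding protein, had one of 75.9, 47.9 and 28.5. Bdp1 (33.0 pooled) and Trf (16.6) had a ranked summit but no thresholded one, and Maf1 had neither. No gene symbol in the annotation began with TfIIIC or TFIIIC.

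Genes of the snRNA-activating complex, which serves U6 and other small RNA genes, had 2 of 3, Pbp49 at 88.2 pooled and Pbp95 at 86.7. Of 14 genes for tRNA end processing and modification, 8 passed (57.1%, 28.9 to 82.3%), beside 14.2% of all genes and 17.3% of protein-coding genes. They were La, which binds the U-rich ends of polymerase III transcripts (146 pooled, 77.3 in replicate 1, 61.3 in replicate 2), Rpp20 and Rpp25 of RNase P (144 and 90.8 pooled), Trmt61 and Trmt112 of tRNA methyltransferases (133 and 58.8), RNaseZ, which cuts the 3' end (63.0), Tsen54 of the splicing endonuclease (46.4) and Nsun2, a cytosine methyltransferase (39.1). Of the 8, all but Tsen54 shared the peak with a start of another gene.

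Other RNA polymerase III transcripts were mostly without a thresholded summit, as were other non-coding genes in general. Of the latter 2.46% had a thresholded and 36.8% a ranked summit in the pooled lists, so counts of 0 here do not set these genes apart. It was 0 of 100 annotated 5S rRNA genes and pseudogenes (0 to 3.62%), 2 of which had a ranked summit, and 0 of 3 U6 genes, all with a ranked summit of 25.1 to 30.9. Of the 6 others (7SK, 7SL, RNase P and RNase MRP RNA genes) only snRNA:7SKa passed, with 71.3 pooled, 27.1 in replicate 1 and 41.3 in replicate 2. The 5S genes are near-identical repeats, so their counts carry the same doubt about read placement.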

How the data were processed

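Chromatin immunoprecipitation and sequencing of CG2129-eGFP was measured in 2 biological replicates of 1 group, so no contrast between groups was made. The authors deposited 8 peak lists on dm6, per the readme texts: a thresholded and a ranked list for each replicate, and 4 lists of the pooled replicates. The sources used here name no aligner, peak caller or read placement. Each deposited peak has a signal of unstated scale, a score that follows from the IDR and is capped at 1000, a start, an end and a summit offset. The ranked lists, as deposited, also give -log10 of the IDR. The lowest score of the deposited thresholded lists was 830, which stands for an IDR of 0.01. The local IDR and 32 further columns of the 4 ranked lists were not used.

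Genes came from Ensembl release 115 (BDGP6.54) and sequence from the NCBI RefSeq Release 6 genome; no peak ran past the end of an arm. For each tRNA gene the strongest summit within 500 bp of its start was taken in each list. Shares have exact Clopper-Pearson intervals and differences have Newcombe intervals, both at 95%. Depth is not known from these files. No p-value was computed, since neighbouring genes share peaks. Named tRNA genes are the 10 strongest, the 10 strongest without a protein-coding TSS within 500 bp of the summit, the strongest of each isotype with at least 3 thresholded genes, the strongest ranked gene of each cluster of 5 or more, and those at the edge of the window, with genes of a shared peak named together. The members, lists and tests were chosen with earlier results of these data known. Other windows, lists and linking distances were tried. Polymerase III genes were matched by symbol, and Rpp29 and CCA matched no gene and no symbol began with TfIIIC or TFIIIC. Summit search was tested on simulated data. Python 3.11.15, pandas 2.3.3, numpy 2.4.6, scipy 1.17.1, statsmodels 0.14.6 and matplotlib 3.10.9 were used.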

Additional observations from a re-analysis of the deposited data

Results flagged for a closer look

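The mitochondrial genome, whose 22 tRNA genes were left out above, carried 6 peaks in the thresholded list of replicate 1, with signals from 405 to 8640.4, and 0 in the lists of replicate 2 and in the pooled lists. The strongest of them, 8640.4, appears in data that no comparison above uses. Its cause was not tested.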

How the results depend on the processing

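Of 29 alternatives, 19 left a result within the range set for it (1.5 times for a count, the 95% interval for a share or difference) and 10 moved it. The 58 tRNA genes with a pooled thresholded summit became 12 when both replicates had to pass, 8 for peaks at or above the median signal of the list, and 21 to 47 with 1 replicate left out. They were 41 within 200 bp, 72 within 1000 bp, 52 in the conservative list (39 shared), 61 from either gene end and 42 by overlap with the gene. With clusters and single genes counted once each, 28 of 160 (17.5%) had a summit. That is a change of unit, counted among the 10 because the count fell, while the share stayed near the 20% of genes. Of the alternatives chosen after seeing the data, genes without another tRNA start within 500 bp gave 5 of 142 (3.52%). Peaks without a near protein-coding TSS gave 51 and ranked peaks at the threshold score 60. The ranked share of 83.4% became 65.5% within 200 bp and 90.3% within 1000 bp, and 75.2 to 81.4% with 1 replicate left out. The difference by protein-coding TSS, -1.41 points, became -20.2 at 200 bp, where 3 genes were near, and lay from 2.40 to 2.86 with 1 replicate left out. The clustered minus single difference of 24.3 points lay from 10.6 to 20.4 with 1 replicate left out, 10.6 in replicate 2 alone. No paired analysis was possible because there was 1 group. Depth limits could not be set, since the lists hold no read counts.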
